A study of Mus musculus with 8 samples.

Results

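In cultured mouse kidney tubules, 48 proteasome genes were followed with and without a pulse of GDNF. They were chosen by name: every gene symbol in the deposited tables made of *Psma*, *Psmb*, *Psmc*, *Psmd*, *Psme*, *Psmf* or *Psmg* and a number, which gave 48 of 24063 genes. Of these, 47 had enough counts to be tested among 16557 genes. The only one that did not, *Psmb11*, encodes the catalytic subunit of the thymus form.

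The cultures were tubuloids, epithelial structures that form in Matrigel from pieces of mouse kidney tubules, which the labels place at postnatal day 7 to 10. All 8 cultures carried the genotype Pkd2fl/fl Pax8rtTA TetOCre mTmG, that is, floxed *Pkd2*, a doxycycline-inducible Cre limited by the *Pax8* promoter to kidney epithelium, and a membrane colour reporter. GDNF cultures 6, 12, 17 and 22 received glial-derived neurotrophic factor, the growth factor that drives branching of the ureteric bud, for 24 h in growth factor medium; control cultures 3, 7, 14 and 21 received that medium without GDNF, and RNA was taken on culture day 7. Nothing in the labels ties a culture to one animal, so the p-values measure the spread between these cultures. The study's methods report more than a single flow cell lane, while the sequencing lane of each culture is not given in the sources used here. Whether lane coincided with treatment therefore cannot be told.

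Total counts ranged from 72991721 to 97490625 per culture. All 8 epithelial markers, among them *Cdh1*, *Epcam* and *Pax8*, were detected in every culture, with a summed level of 484 to 3401 CPM (counts scaled to a fixed library total, with TMM factors) in the controls and 947 to 1685 CPM in the GDNF cultures. The 8 stromal markers summed to 995 to 4670 CPM in the controls and 806 to 3262 CPM after GDNF. The leukocyte markers were low, at 11.2 to 32.0 CPM and 12.7 to 35.1 CPM, with *Itgam*, *Tyrobp*, *C1qa*, *C1qb* and *C1qc* at 0 in some cultures, as were the endothelial markers, at 23.8 to 61.0 CPM and 18.6 to 45.5 CPM, with *Cdh5* and *Tek* at 0 in some cultures. Of the epithelial markers, *Krt8* (log2 fold change -1.45 ± 0.63 (SE), unadjusted p = 0.0437) and *Cldn4* (log2 fold change -1.15 ± 0.45 (SE), unadjusted p = 0.0287) were at an unadjusted p under 0.05, *Krt8* being high in control cultures 3 and 21. Of the other marker lists, the stromal *Lum* (log2 fold change -1.30 ± 0.37 (SE), unadjusted p = 0.00552), with every GDNF culture below every control, and the endothelial *Tek* (log2 fold change 2.69 ± 1.07 (SE), unadjusted p = 0.0303) were. Of all genes tested, 12.9% were lower and 9.25% higher at that p, and in 6.26% every GDNF culture lay below every control. Control culture 3 stood apart: its TMM scaling factor was 0.790, against 0.963 to 0.982 in the other controls and 1.07 to 1.11 in the GDNF cultures. Counting one transcript per gene, those of at most 2437 bases (the median of detected genes) held 64.1% of its counts, against 52.6% to 55.3% in the other controls and 45.8% to 52.0% in the GDNF cultures. Its part in the results was followed by leaving it out, while the part of the mix of cells was not tested.

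The proteasome is the large protease that degrades proteins tagged with ubiquitin. Its core particle is a barrel of outer rings of α subunits (*Psma* genes) and inner rings of β subunits (*Psmb* genes), of which *Psmb5*, *Psmb6* and *Psmb7* encode the catalytic ones. In the immunoproteasome, which cells make in response to interferon and which serves antigen presentation, *Psmb8*, *Psmb9* and *Psmb10* encode the subunits that take their places. The 19S regulatory particle, made of a base with ATPases (*Psmc*) and a lid (*Psmd*), binds and unfolds the tagged protein. Dedicated chaperones assist assembly of the core (*Psmg1* to *Psmg4*) and of the base (*Psmd5*, *Psmd9*, *Psmd10*), and other activators (*Psme*) can cap the core in place of the regulatory particle. Inhibitors of its catalytic subunits are used against myeloma, whose cells make much protein, and the transcription factor *Nfe2l1* is known to raise many subunit genes together when proteasome activity falls short.

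Because subunit genes are known to be regulated together, the RefSeq promoters of GRCm38.p6, which span 250 bases before to 50 bases after a gene's start, were searched on both strands for 3 short motifs. TGACNNNGC is the core of the element to which *Nfe2l1* and *Nfe2l2* bind, GAAA, 2 bases of any kind and GAAA again form an interferon-response type of repeat (the GAAA repeat), and CCAAT is a common promoter box. No motif contains another. A promoter was at hand for 40 of the 48 members, 43 promoters in all, and not for *Psma8*, *Psmb1*, *Psmb2*, *Psmb7*, *Psmc3*, *Psmd3*, *Psmd7* and *Psmg2*. TGACNNNGC was in 6 member promoters (14%) and in 12.4% of all 32851 promoters, the GAAA repeat in 5 (11.6%) and in 3.44% of all, and CCAAT in 14 (32.6%) and in 37.4% of all. The 30 bases around the matches that lie wholly before the start set by the promoter are given here. The letters can thus be compared between catalytic subunits, a chaperone and subunits of the regulatory particle. For *Psmb6* the gene position used elsewhere begins earlier, at chr11:70525324, so that its window lies inside that span. None of these windows overlaps an exon of the GENCODE annotation. Capitals mark the match, and those of *Psmc6*, *Psmd12*, *Psmb3* and *Psmd4* read the motif on the other strand. The first 5 hold TGACNNNGC, at chr14:54618023-54618052 (minus strand), chr11:70525327-70525356, chr5:123228149-123228178, chr14:45329587-45329616 and chr11:107479278-107479307 (plus strand), respectively.
Psmb5: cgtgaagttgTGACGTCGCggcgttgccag
Psmb6: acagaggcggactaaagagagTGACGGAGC
Psmd9: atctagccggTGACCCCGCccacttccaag
Psmc6: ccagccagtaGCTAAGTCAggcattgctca
Psmd12: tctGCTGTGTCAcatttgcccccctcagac

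The next 3 hold the GAAA repeat, at chr11:97703261-97703290 (plus strand), chr3:95042675-95042704 (minus strand) and chr5:123228021-123228050 (plus strand).
Psmb3: cacagtgactTTTCACTTTCcgctttccat
Psmd4: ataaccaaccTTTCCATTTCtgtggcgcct
Psmd9: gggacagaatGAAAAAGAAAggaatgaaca

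The remaining matches, TGACNNNGC in *Psme4* and the GAAA repeat in *Psmg4* and *Psme1*, reach the start or lie after it. No match for the GAAA repeat was found in the windows of *Psmb8*, *Psmb9* and *Psmb10*, and *Psmd9* held both motifs. These matches are letters in a window and were not tied to binding or to the levels below.

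In the GDNF cultures, 46 of the 47 members tested had a lower fitted level than in the controls, against 47.5% of all genes tested. Among them were 14 of 14 constitutive core subunits and 17 of 17 regulatory particle genes that the choice by name took in. Genes of that particle with other names are not among these 17, such as *Adrm1* (log2 fold change -0.016), which is given with the partners below. Library size alone as scaling gave 45 of 47 lower, against 31.9% of all genes, with *Psmd3* and *Psme4* higher. At an unadjusted p under 0.05, that scaling gave 23 lower and 0 higher, against 5.13% and 19.9% of all genes. The authors' TPM gave 38 with a lower mean, against 21.2% of all genes. By the quasi-likelihood test of edgeR, adjusted over all genes after Benjamini and Hochberg, 0 members passed at 0.05, nor did any other gene (smallest adjusted p = 0.167). At an unadjusted p under 0.05, 35 members were lower, against 12.9% of all genes tested, and 0 were higher, against 9.25%. In 21 members every GDNF culture lay below every control culture, which 6.26% of all genes showed, and in 0 members every GDNF culture lay above, which 6.99% showed. The count below was 8 with library size only (2.1% of all genes), 35 without GDNF culture 6 (12.3%) and 32 without control culture 21 (14.2%). The median log2 fold change of the members was -0.61, from -0.85 (*Psmd10*) to 0.27 (*Psme4*), beside a median of 0.033 over all genes tested. DESeq2, run as an alternative, placed 27 members below an adjusted p of 0.05, all lower, against 12.4% of the genes to which it gave an adjusted p. It placed 0 members there as higher, against 2.3%, and gave 3 members no adjusted p (*Psma8*, *Psmb8*, *Psmb9*). In bulk RNA, fewer cells of a type and less RNA per cell cannot be told apart.

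Control culture 3 was the highest of the 8 cultures for 40 of the 47 members, against 26.3% of all genes. Without it, 28 members were lower at an unadjusted p under 0.05, against 8.18% of all genes, and the median log2 fold change was -0.42. Member genes took 0.837% to 1.08% of all counts in the controls and 0.676% to 0.811% in the GDNF cultures, so that the share before any composition scaling did not overlap between the groups. The controls, with culture 3 among them, also varied more. The median SD of log2 CPM over the members was 0.376 between controls and 0.186 between GDNF cultures, and it was not computed without culture 3. Over all genes tested the medians were 0.380 and 0.266. Each group held 2 cultures with *Xist* RNA and 2 with Y-linked RNA. Among the cultures with *Xist* RNA (control 3 and 7, GDNF 6 and 12), 46 members had a lower mean after GDNF, with a median log2 difference of -0.62. Among the other 4 cultures, which do not include control culture 3, 45 did, with a median of -0.48. The same counts were not made over all genes, so these are given as a description.

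**Figure D1:**
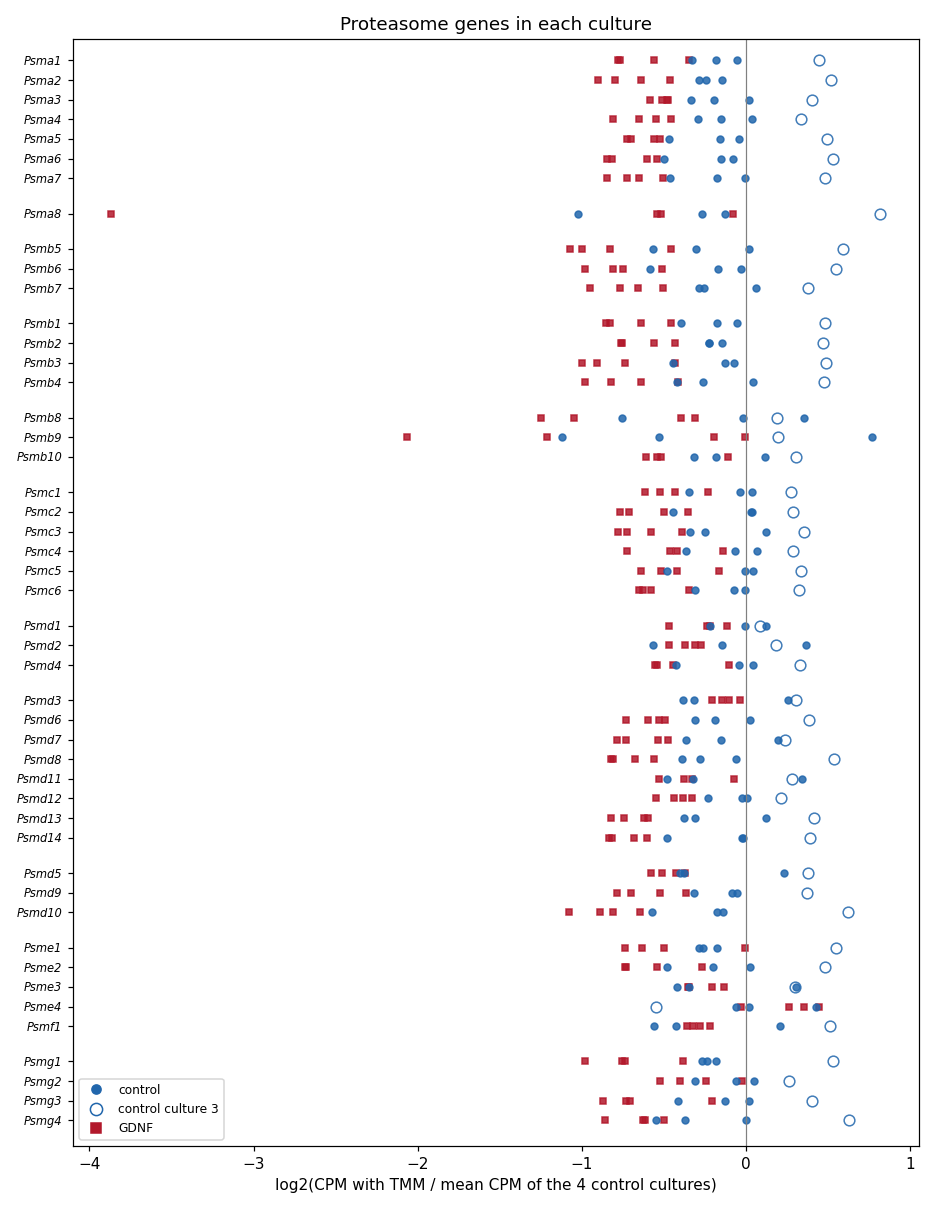
Level of each tested member in each culture, as log2 of its CPM with TMM scaling over the mean CPM of the 4 control cultures (x axis), with the members on the y axis grouped by role. Blue circles are control cultures, the open circle being control culture 3, and red squares are GDNF cultures; for 21 members every red square lies left of every blue circle, and control culture 3 is rightmost for 40 members.

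The 7 α subunits that form the outer rings of the core all had lower values in every GDNF culture than in any control, with log2 fold changes from -0.70 to -0.51 and a median of -0.62. All 7 had an unadjusted p under 0.05, with and without control culture 3. Of all genes, 12.9% and 8.18% were lower at that p, in that order, and 6.26% lay below without overlap. *Psma3* (NM_011184; chr12:70969283-70995877 on GRCm38) had the highest level per transcript length of all members, 561 ± 130.2 RPKM (SD, n = 4) in the controls and 393 ± 13.9 RPKM (n = 4) in the GDNF cultures. Its CPM was 1053, 806, 698 and 632 in control cultures 3, 7, 14 and 21 and 574, 531, 570.4 and 559 in GDNF cultures 6, 12, 17 and 22 (log2 fold change -0.51 ± 0.18 (SE), unadjusted p = 0.0156). The 4 GDNF cultures were close to each other and the controls were spread over a wider range. *Psma4* stood at 229, 164, 186 and 148 CPM in the controls, in the same order of cultures, and at 133, 104, 125 and 116 CPM after GDNF (log2 fold change -0.61 ± 0.16 (SE), unadjusted p = 0.00409), again without overlap. The other 5 had log2 fold changes of -0.60 (*Psma1*), -0.69 (*Psma2*), -0.62 (*Psma5*), -0.70 (*Psma6*) and -0.68 (*Psma7*).

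*Psma8*, which encodes the α subunit of germ cell proteasomes, was the lowest member tested, at 0.149 RPKM over all cultures. Its counts were 40, 25, 27 and 13 in the controls and 2, 22, 21 and 24 in the GDNF cultures, the lowest being GDNF culture 6, and the groups overlapped (log2 fold change -0.73 ± 0.72 (SE), unadjusted p = 0.335). *Psmb11* had counts of 0, 3, 0 and 5 in the controls and 0, 8, 8 and 0 after GDNF, so that 4 cultures had none, where a count of 0 allows up to 3 counts. At this depth no difference in it was detectable.

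The 3 constitutive catalytic β subunits had the lowest median among the groups of constitutive core subunits, -0.75, and each had an unadjusted p under 0.05. *Psmb5* (NM_011186; chr14:54614120-54617995), the subunit with chymotrypsin-like activity and the main target of bortezomib, was at 309, 166, 208 and 138 CPM in the controls and 149, 103, 116 and 97.5 CPM after GDNF (log2 fold change -0.82 ± 0.25 (SE), unadjusted p = 0.00871). Its groups touched: GDNF culture 6 lay above control culture 21. *Psmb6*, with caspase-like activity, was at 641, 388, 428 and 292 CPM in the controls and 307, 249, 260.2 and 222 CPM in the GDNF cultures (log2 fold change -0.75 ± 0.23 (SE), unadjusted p = 0.00878), with the same overlap of GDNF culture 6 and control culture 21. *Psmb7* (chr2:38588046-38643952), with trypsin-like activity, was at 114, 73.7, 91.8 and 72.0 CPM and 62.0, 51.6, 55.7 and 45.6 CPM (log2 fold change -0.71 ± 0.18 (SE), unadjusted p = 0.00279), and here every GDNF culture was below every control.

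The non-catalytic β subunits *Psmb1*, *Psmb2*, *Psmb3* and *Psmb4*, which complete the inner rings, all had an unadjusted p under 0.05, with a median log2 fold change of -0.69. *Psmb3* was at 242, 127, 158 and 164 CPM in the controls and 128, 92.2, 104 and 86.4 CPM in the GDNF cultures (log2 fold change -0.75 ± 0.21 (SE), unadjusted p = 0.00538), where GDNF culture 6 and control culture 7 were nearly level. For *Psmb1*, the values were 574, 364, 396 and 314 CPM and 300.4, 232, 264 and 228 CPM (log2 fold change -0.69 ± 0.20 (SE), unadjusted p = 0.00683), without overlap. *Psmb2* and *Psmb4* had log2 fold changes of -0.62 and -0.70. Over the 14 constitutive core subunits, 14 had an unadjusted p under 0.05, 10 showed no overlap between groups, and 14 passed DESeq2's adjusted p. Of all genes, 12.9% were lower at that unadjusted p and 6.26% lay below without overlap. DESeq2 passed 12.4% as lower, of the genes to which it gave an adjusted p.

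The immunoproteasome subunits were far below the constitutive ones in level. The groups overlapped in all 3, as they did in the constitutive *Psmb3*, *Psmb4*, *Psmb5* and *Psmb6*. Of the 3, 2 were lower at an unadjusted p under 0.05, against 12.9% of all genes. *Psmb8* and *Psmb9* lie next to the peptide transporter gene *Tap1* in the major histocompatibility complex, at chr17:34198195-34201454 and chr17:34182030-34187330, while *Psmb10* lies at chr8:105935728-105938392. Per transcript length their levels over all cultures were 5.24 RPKM (*Psmb8*), 1.16 RPKM (*Psmb9*) and 15.7 RPKM (*Psmb10*), where the 3 constitutive counterparts ranged from 73.1 to 336 RPKM. *Psmb8*, the counterpart of *Psmb5*, was at 9.04, 7.82, 10.1 and 4.70 CPM in the controls and 6.03, 6.38, 3.34 and 3.83 CPM after GDNF (log2 fold change -0.69 ± 0.31 (SE), unadjusted p = 0.0465). Control culture 21 lay within the GDNF range. *Psmb9*, the counterpart of *Psmb6*, was at 1.30, 1.94, 0.790 and 0.524 CPM in the controls and 1.13, 0.997, 0.493 and 0.272 CPM after GDNF (log2 fold change -0.65 ± 0.56 (SE), unadjusted p = 0.271), from counts of 94, 186, 74 and 44 and 105, 100, 48 and 22. The groups overlapped, with both ends of the range lower after GDNF. *Psmb10*, the counterpart of *Psmb7*, was at 28.2, 20.2, 24.8 and 18.4 CPM and 21.2, 16.0, 15.0 and 15.8 CPM (log2 fold change -0.43 ± 0.19 (SE), unadjusted p = 0.0447). GDNF culture 6 was the highest of its group and stood above control cultures 7 and 21. Neither *Psmb8* nor *Psmb10* kept an unadjusted p under 0.05 without control culture 3.

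The ratio of an immunoproteasome subunit to its counterpart within a culture does not depend on how libraries are scaled. The length-scaled level of *Psmb8* was 2.09% to 3.47% of that of *Psmb5* in the controls and 2.06% to 4.43% in the GDNF cultures, a mean log2 difference of 0.079 (exact permutation test, two-sided, p = 0.829, n = 4 and 4). *Psmb9* was at 0.231% to 0.643% of *Psmb6* in the controls and at 0.158% to 0.515% after GDNF, with a log2 difference of 0.0078 (exact permutation test, p = 1). Both ratios overlapped between the groups, and the direction of both turned when single cultures were left out. *Psmb10* was at 18.9%, 20.9%, 20.6% and 19.5% of *Psmb7* in control cultures 3, 7, 14 and 21 and at 26.1%, 23.7%, 20.5% and 26.4% in GDNF cultures 6, 12, 17 and 22. That is a log2 difference of 0.27 (p = 0.0857 by exact permutation, 0.257 after adjustment over the 3 ratios). Of the GDNF cultures, 3 lay above all controls and culture 17 lay within their range. The smallest p that 4 against 4 cultures allow is 0.0286.

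**Figure D2:**
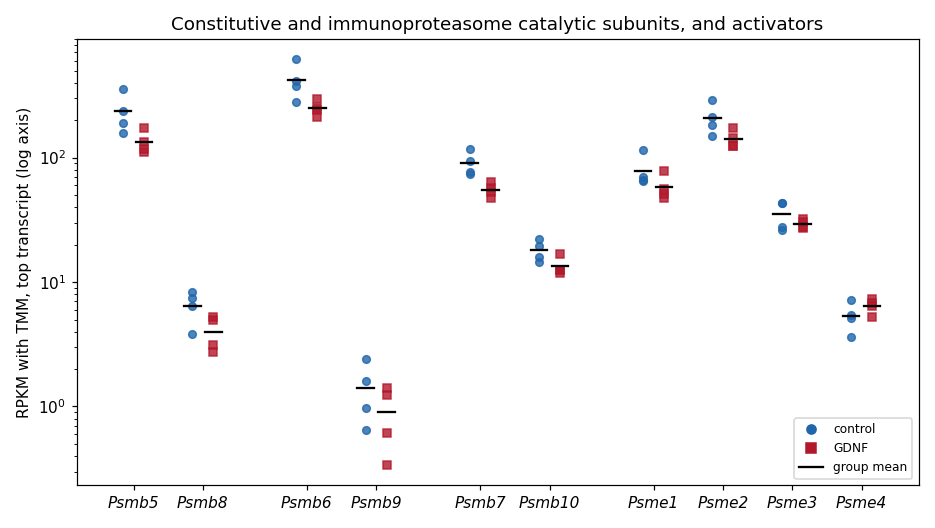
Length-scaled level (RPKM with TMM scaling of the transcript with most counts, log axis) of each constitutive catalytic subunit beside its immunoproteasome counterpart, and of the activator genes. Each point is a culture (blue circle, control; red square, GDNF; n = 4 each) and the black line is the group mean; *Psmb8* stays between 2.06% and 4.43% of *Psmb5* in all 8 cultures.

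The 17 regulatory particle genes among the members had levels per length of 49.1 to 156 RPKM over all cultures (median 87.2 RPKM). The 14 constitutive core genes had 73.1 to 477 RPKM (median 249 RPKM). The median log2 fold change of the regulatory particle genes was -0.44, with 12 of 17 at an unadjusted p under 0.05 and 8 without overlap. Of all genes, 12.9% were lower at that p, 8.18% without control culture 3, and 6.26% lay below without overlap. All 6 ATPases of the base had an unadjusted p under 0.05, from -0.61 (*Psmc3*) to -0.42 (*Psmc4*), and 4 of them without control culture 3 (*Psmc1*, *Psmc2*, *Psmc3*, *Psmc6*). The 3 non-ATPase base genes did not reach it in this fit, though *Psmd1* did with the trend on transcript length removed (-0.32): *Psmd1* and *Psmd2*, the scaffolds of the base, had -0.25 ± 0.14 and -0.35 ± 0.20 (SE), and the ubiquitin receptor gene *Psmd4* had -0.40 ± 0.18. In TPM the mean of each was higher after GDNF, for example 81.3 TPM in the controls and 89.6 TPM in the GDNF cultures for *Psmd1*. Most genes were higher on that scale, where only 21.2% of all genes had a lower mean.

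Of the 8 lid genes among the members, 6 were lower at an unadjusted p under 0.05, against 12.9% of all genes. The same 6 showed no overlap between the groups, against 6.26% of all genes. *Psmd14* (NM_021526; chr2:61711694-61800376), the metalloprotease that cuts ubiquitin chains from the substrate, had the smallest p of all members. Its values were 350.3, 263, 264 and 191 CPM in control cultures 3, 7, 14 and 21 and 176, 152, 167 and 150.0 CPM in GDNF cultures 6, 12, 17 and 22 (log2 fold change -0.73 ± 0.18 (SE), unadjusted p = 0.00266, edgeR adjusted p = 0.167). The highest GDNF culture was below the lowest control, culture 21, and 3 of the controls were well above it. *Psmd7*, its partner in the lid, was at 209.9, 138, 204 and 159.9 CPM and 123, 107, 128 and 103 CPM (log2 fold change -0.63 ± 0.17 (SE), unadjusted p = 0.00379), and this difference was -0.54 without control culture 3. For *Psmd13*, a structural lid subunit, the values were 225, 136, 183 and 129 CPM and 109.5, 95.2, 111 and 100.4 CPM (log2 fold change -0.69 ± 0.19 (SE), unadjusted p = 0.00425), also without overlap.

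*Psmd6*, another structural subunit, was at 206, 127, 161 and 138 CPM in the controls and 112, 95.3, 109.7 and 105 CPM after GDNF (log2 fold change -0.58 ± 0.17 (SE), unadjusted p = 0.006). *Psmd8*, which joins the lid late, was at 425, 224, 241 and 281 CPM and 198, 166, 183 and 167 CPM (log2 fold change -0.71 ± 0.21 (SE), unadjusted p = 0.00622), with control culture 3 far above the rest. In both, all 4 GDNF cultures lay below all controls, as in *Psmd12* (log2 fold change -0.42). *Psmd3* and *Psmd11* were the exceptions in the lid, at -0.12 ± 0.18 and -0.32 ± 0.21 (SE). Both had a higher mean TPM after GDNF, as most genes did. Without control culture 3 the *Psmd3* difference was -0.0043.

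Of the assembly chaperones, which are not part of the finished particle, 6 of 7 were lower at an unadjusted p under 0.05, against 12.9% of all genes. Their median log2 fold change was -0.61. Without control culture 3, 4 of 7 were lower at that p, against 8.18% of all genes, and no longer *Psmd5* (-0.32) and *Psmg4* (-0.36). *Psmd10* (gankyrin; chrX:140948425-140956711), which holds the ATPase *Psmc4* during base assembly, had the most negative value of all members, -0.85 ± 0.24 (SE, unadjusted p = 0.00533). Its values were 305, 180.1, 176 and 134 CPM in the controls and 127, 108, 113 and 94.1 CPM in the GDNF cultures. The groups did not overlap, and without control culture 3, which was the highest by far, the difference was -0.56. *Psmd9* was at 57.6, 35.8, 42.9 and 42.1 CPM and 34.6, 27.5, 31.0 and 25.9 CPM (log2 fold change -0.58 ± 0.17 (SE), unadjusted p = 0.00733), without overlap. *Psmd5* was at 104, 60.7, 61.8 and 94.1 CPM and 62.0, 53.6, 59.6 and 56.3 CPM (log2 fold change -0.47 ± 0.19 (SE), unadjusted p = 0.0363), where GDNF culture 6 lay above control cultures 7 and 14.

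Of the core chaperones, *Psmg1*, which pairs with *Psmg2* to build the α ring, was at 51.4, 31.4, 29.6 and 30.3 CPM in the controls and 27.3, 21.1, 21.4 and 18.1 CPM after GDNF (log2 fold change -0.70 ± 0.22 (SE), unadjusted p = 0.00888), without overlap. *Psmg3* was at 44.4, 30.6, 33.9 and 25.1 CPM and 29.0, 20.5, 20.2 and 18.3 CPM (log2 fold change -0.61 ± 0.21 (SE), unadjusted p = 0.0166). Its partner *Psmg4* was at 138, 89.7, 69.2 and 61.3 CPM and 63.4, 58.5, 58.0 and 49.3 CPM (log2 fold change -0.64 ± 0.24 (SE), unadjusted p = 0.0237). In *Psmg3* and *Psmg4* the highest GDNF culture, number 6, lay above control culture 21. *Psmg2* had -0.29 ± 0.17 (SE), with an unadjusted p of 0.123. Like most genes, it had a higher mean in TPM after GDNF, 45.5 against 42.1 TPM.

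Of the activators and the inhibitor, 1 of 5 was lower at an unadjusted p under 0.05, against 12.9% of all genes. Their median log2 fold change was -0.29. The difference from the other groups of members was not tested. *Psme1* and *Psme2* encode the interferon-inducible 11S cap. *Psme2* (chr14:55587440-55591101), whose reads cannot be told apart with certainty from those of its near-identical copy *Psme2b*, was at 516, 375, 321 and 264 CPM in the controls and 307, 253, 222 and 222 CPM after GDNF (log2 fold change -0.56 ± 0.22 (SE), unadjusted p = 0.0277). Without control culture 3 its value was -0.35, no longer at an unadjusted p under 0.05. *Psme1*, which lies close by, was at 112, 67.9, 63.0 and 64.0 CPM and 76.4, 54.3, 46.1 and 49.4 CPM (log2 fold change -0.44 ± 0.23 (SE), unadjusted p = 0.0883). GDNF culture 6 was the highest of its group in both genes and overlapped the controls, and control culture 3 was the highest of all. Per length the 11S genes were well above the immunoproteasome subunits, with 208 RPKM of *Psme2* in the controls.

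*Psme3*, the nuclear form of the 11S cap, was at 113, 72.4, 68.8 and 114 CPM in the controls and 79.6, 71.9, 83.7 and 72.2 CPM after GDNF (log2 fold change -0.26 ± 0.19 (SE), unadjusted p = 0.209), while its mean TPM was higher after GDNF, 58.4 ± 3.88 against 52.9 ± 15.1 TPM (SD, n = 4 each). *Psmf1*, an inhibitor of the core, was at 38.5, 20.1, 18.3 and 31.2 CPM and 23.2, 22.3, 21.03 and 21.6 CPM (log2 fold change -0.29 ± 0.23 (SE), unadjusted p = 0.233). Its mean TPM was also higher after GDNF, 12.4 against 11.3 TPM, and most genes were higher on that scale. *Psme4* (NM_134013; chr11:30771775-30881150), the large PA200 cap, was the only member with a higher fitted level after GDNF, at 23.5, 46.4, 34.9 and 33.0 CPM in the controls and 33.7, 41.3, 44.0 and 46.8 CPM in the GDNF cultures (log2 fold change 0.27 ± 0.21 (SE), unadjusted p = 0.225). Control culture 3 was the lowest for it, not the highest, and its direction turned to -0.044 once the trend on transcript length was removed.

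The members are short, so transcript length is set beside their fold changes here. Whether length itself shaped these values was not tested. Length was obtained from the deposited counts and FPKM, whose ratio gave a whole number of bases (within 0.01) for 100% of 29020 detected transcripts. The median over the members tested was 1344 bases, against 2674 bases over all genes tested, and 39 of the 48 members were under 2000 bases. The shortest was *Psmg4*, with 554 bases, and the longest *Psme4*, with 6442 bases. Across genes, fold changes followed length: in 5 equal classes from short to long, the median log2 fold change of all genes was -0.32, -0.17, -0.020, 0.11 and 0.32. The members in these classes had medians of -0.63 (24 members), -0.57 (17), -0.35 (3), -0.27 (2) and 0.27 (1). In the first 4 classes the median of the members was thus below that of all genes of like length, though *Psmg2* and *Psmd3* were each above the median of their class, and in the last, *Psme4* was slightly below it. Spearman's correlation between length and log2 fold change was 0.52 across the 47 members and 0.38 across all genes, given as a description, since the genes share the libraries.

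**Figure D3:**
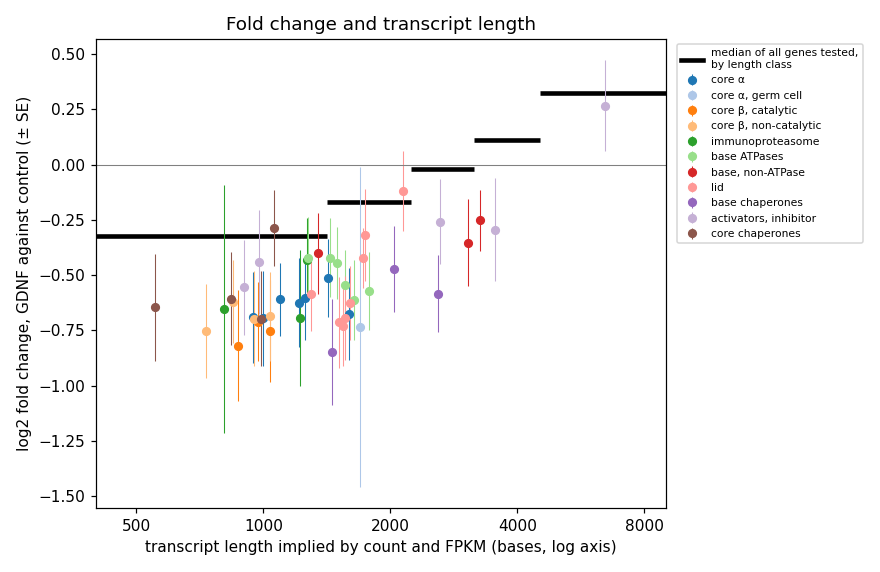
Log2 fold change of each tested member with its standard error (y axis) against the transcript length implied by count and FPKM (x axis, log scale in bases), coloured by role. Black bars are the medians of all 16557 genes tested in 5 length classes; 41 members lie in the 2 shortest classes, where these medians are -0.32 and -0.17.

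With a trend on length fitted in each culture and removed, the median log2 fold change of the members was -0.37, against -0.034 for all genes, and 29 members were lower at an unadjusted p under 0.05, against 12% of all genes. The correlation with length across the members was then -0.029. All 14 constitutive core subunits kept an unadjusted p under 0.05 (median -0.39), and 5 of 7 chaperones were under 0.05 (median -0.38). Of the 17 regulatory particle genes 10 were (median -0.35), *Psmd1* at -0.32 among them, which was not without that correction, while *Psmc1*, *Psmc4* and *Psmc5* no longer were. *Psmd14* was at -0.54 and *Psmd10* at -0.63. *Psmd9*, with 2591 bases one of the longer members, stayed at -0.58. None of the 3 immunoproteasome subunits and none of the 5 activators and inhibitor kept it. The share of counts on short transcripts given above also did not overlap between the groups, and its part in the remaining differences was not tested.

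**Figure D4:**
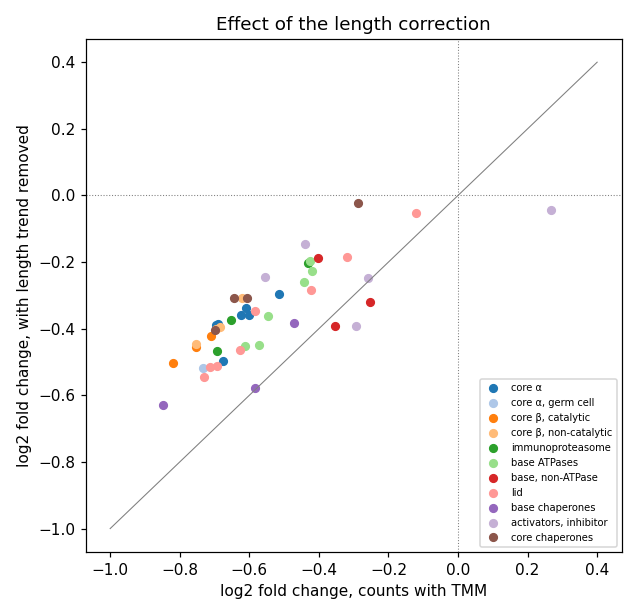
Log2 fold change of each tested member after removal of the length trend (y axis) against its value without that correction (x axis), coloured by role; the diagonal marks equal values and the dotted lines 0. Members that had been most negative moved up towards 0, *Psmd10* from -0.85 to -0.63, and *Psme4* moved from 0.27 to -0.044.

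The scale also set the size of the differences. The median log2 change over all genes tested was 0.033 with TMM, 0.25 with library size only and 0.42 in the authors' TPM, which carries no correction for composition. The members' medians on these scales were -0.61, -0.37 and -0.19, and relative to all genes they were -0.64, -0.62 and -0.61. Each scale changes all genes of a culture by a common factor, apart from transcript length, which cancels in a fold change. The place of the members relative to the median gene could therefore hardly differ between scales, and its likeness is no check on it. The sign of single members did depend on the scale. In TPM, 9 members had a higher mean after GDNF (*Psmd1*, *Psmd2*, *Psmd3*, *Psmd4*, *Psmd11*, *Psme3*, *Psme4*, *Psmf1* and *Psmg2*). Of all genes tested, only 21.2% had a lower mean on that scale.

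For 6 members the tables list several transcripts. The 2 of *Psma7* had nearly equal counts (the second at 99.4% of the first) and lengths of 1591 and 952 bases, so that its level per length is 1.66 times higher with the shorter one. The other 5 (*Psmd2*, *Psmd4*, *Psmd10*, *Psme2* and *Psmg4*) were alike in this, their lower-count transcript reaching 97.7% or more of the other. A sum over such transcripts takes in shared reads more than once. With only the top transcript of each gene, 35 members were lower at an unadjusted p under 0.05, as with the sums.

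Genes that work with the proteasome were mixed. Of 24 partners listed, 7 were lower and 1 higher at an unadjusted p under 0.05, against 12.9% and 9.25% of all genes, with a median log2 fold change of -0.19. With the length trend removed 11 were lower, against 12% of all genes. *Pomp*, the maturation factor of the core, was at 309, 207, 215 and 171 CPM in control cultures 3, 7, 14 and 21 and 166, 126, 143 and 115 CPM in GDNF cultures 6, 12, 17 and 22 (log2 fold change -0.71 ± 0.20 (SE), unadjusted p = 0.00544). *Txnl1*, a thioredoxin bound to the regulatory particle, was at 252, 161, 189 and 163 CPM and 139, 107, 129 and 118 CPM (log2 fold change -0.63 ± 0.18 (SE), unadjusted p = 0.00467). In both genes the groups did not overlap. The ubiquitin receptor gene *Adrm1* was at 83.4, 65.9, 81.3 and 91.2 CPM and 87.6, 68.7, 81.0 and 81.2 CPM (log2 fold change -0.016 ± 0.14 (SE), unadjusted p = 0.916), a value near 0 whose sign differed between scalings. *Nfe2l1* was at 330.3, 329.9, 349 and 327 CPM and 294, 405, 406 and 329 CPM (log2 fold change 0.10 ± 0.15 (SE), unadjusted p = 0.51), with GDNF cultures on both sides of the controls and a value of -0.13 after removal of the length trend. The 1 higher partner, listed as *AI314180*, an older symbol of the proteasome adaptor *Ecpas*, had 0.47 ± 0.16 (SE) and 0.16 after that removal.

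Of 11 genes of antigen processing, which share interferon control with the immunoproteasome, 1 was lower and 0 were higher at an unadjusted p under 0.05, against 12.9% and 9.25% of all genes, with a median log2 fold change of 0.041. That gene was *B2m*, the light chain of class I molecules, at 129, 102, 110.1 and 127 CPM in the controls and 87.9, 77.8, 86.2 and 87.3 CPM after GDNF (log2 fold change -0.47 ± 0.13 (SE), unadjusted p = 0.00499), a short transcript of 858 bases whose value was -0.18 with the length trend removed. The class I heavy chain genes *H2-K1*, at 58.9, 32.3, 34.0 and 59.0 CPM and 37.3, 37.2, 33.0 and 29.1 CPM, and *H2-D1*, at 98.2, 38.6, 28.8 and 93.5 CPM and 63.4, 39.1, 35.6 and 35.1 CPM, overlapped between groups, with control cultures 3 and 21 high in both. They may share reads with other class I genes. *Tap1* was at 17.3, 10.5, 6.83 and 11.7 CPM and 16.4, 14.8, 7.08 and 10.2 CPM (log2 fold change 0.06 ± 0.33 (SE), unadjusted p = 0.858), a value that turned negative when some single cultures were left out. The interferon regulator gene *Irf1* was at 93.6, 101, 83.3 and 101 CPM and 113, 116, 76.2 and 107 CPM (log2 fold change 0.12 ± 0.16 (SE), unadjusted p = 0.462), also with overlap.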

How the data were processed

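Per the labels and the study's methods, RNA of 8 tubuloid cultures was made into SMART-Seq v4 poly-A libraries. The submitters' processing notes name STAR, featureCounts, DESeq2 and the build mm10 (GRCm38), while tool versions, strand handling and the rule for shared reads are not given in the sources used here. The authors deposited whole-number counts per RefSeq transcript without normalization, FPKM (count per length and library total) and TPM, scaled by the authors to 1 total per culture. For each symbol, transcript counts were added up. They were tested in R 4.3.3 by edgeR 4.0.16 (filterByExpr, TMM, quasi-likelihood test, Benjamini-Hochberg over 16557 genes). The SE is the absolute log2 fold change over the square root of F. CPM and RPKM use TMM library sizes, RPKM the transcript with most counts. FPKM gave transcript lengths. Ratios were compared by exact permutation over 70 assignments. Members and lists were chosen with earlier results of these data known. Values in every culture are given for *Psmb5* to *Psmb10*, *Psme1* to *Psme4*, *Psmf1*, the highest and lowest member per length, the 10 smallest p, chaperones with an unadjusted p under 0.05, untested members and, from the partner and antigen processing lists, the 3 smallest p of each and *Pomp*, *Adrm1*, *Nfe2l1*, *Tap1* and *Irf1*. One of these partner genes is not reported here. Alternatives were DESeq2 1.42.0 (3 of the members without an adjusted p), limma-voom (limma 3.58.1), other scalings and filters, one transcript per gene, the kind of culture (*Xist* or Y-linked RNA) as a covariate, a spline on log length (5 degrees of freedom) as offset, and each culture left out. The fits were tested on simulated data. Gene positions and promoters are from RefSeq and the exons compared with the promoter windows from GENCODE M21, all on GRCm38. Python 3.11.15, SciPy 1.17.1 and matplotlib 3.10.9 were used.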

Additional observations from a re-analysis of the deposited data

Results flagged for a closer look

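In groups of 4 cultures, a culture was picked out when its gap to the nearest other culture, over the range of the group, exceeded Dixon's 95% critical value for 4 values. Of 62 groups examined, 4 had such a culture, where chance gives about 3.1, since it picks about 1 in 20. *Psmb10* was at 21.2 CPM in GDNF culture 6, while the other GDNF cultures were at 15.0 to 16.0 CPM. *Psme1* was at 112 CPM in control culture 3, against 63.0 to 67.9 CPM in the other controls, and *Psmg1* was at 51.4 CPM in that culture, against 29.6 to 31.4 CPM. The level of *Psmb9* relative to *Psmb6* was 0.643% in control culture 7 and 0.231% to 0.261% in the other controls.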

How the results depend on the processing

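Of 459 comparisons of the 27 named members with an alternative, 442 kept their direction and did not pass the adjusted threshold, 16 passed it under DESeq2 and 1 turned. Among the 442 are those of *Psma8*, *Psmb8* and *Psmb9* with DESeq2, which kept their direction but had no adjusted p. With library size only, 23 members were lower at an unadjusted p under 0.05 (against 5.13% of all genes), the median log2 fold change was -0.37 and 8 members showed no overlap. With the length trend removed the median was also -0.37. With DESeq2, 27 members passed the adjusted p, and with edgeR or limma-voom 0. Leaving out each culture in turn gave 26 (without GDNF culture 22) to 37 members lower and 0 to 1 higher (1 without control culture 7) at an unadjusted p under 0.05, 21 to 35 without overlap (35 without GDNF culture 6, 32 without control culture 21), 0 past the adjusted p, and a median from -0.73 to -0.42. The difference in the log2 ratio ranged from -0.12 to 0.25 for *Psmb8* to *Psmb5*, from -0.23 to 0.36 for *Psmb9* to *Psmb6* and from 0.22 to 0.35 for *Psmb10* to *Psmb7*. *Psme4* turned to -0.044 and *Nfe2l1* to -0.13 with the length trend removed. *Adrm1* turned to 0.20 with library size only, 0.015 with upper quartile scaling and 0.17 with the length trend removed, and ranged from -0.10 to 0.048 with single cultures left out. *Tap1* ranged from -0.13 to 0.32 in that way. The cause of these turns was not tested. With permutation within the kind of culture, 36 assignments allow no p under 0.0556. No paired analysis was possible because the groups share no culture number. Counts limit *Psma8*, *Psmb9* and *Psmb11*. For the other members the spread between cultures limits the precision.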
